A study of Mus musculus with 12 samples.

Results

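The genes described here are 38 members of the cell death machinery and of the p53 response, chosen by name: the BCL2 family, the caspases with their activators and inhibitors, and p53 with its inhibitors and targets. Probe sets annotated to 1 of these genes alone were found for 36 of the 38, 93 probe sets among 45101 on the array. Probe sets for Bax and Trp53 were not analysed here. Of the 36 genes, 32 were bright enough to be tested, among 11785 tested genes of 18194 named ones. The samples were pieces of cerebral cortex from mouse embryos at embryonic day 14. Caudal and rostral cortex came from AP2gamma knockout embryos (KO) and from wild-type embryos (WT), with 3 biological replicates in each of the 4 groups. Caudal KO arrays carry animal numbers 1, 2 and 13, caudal WT arrays 4, 6 and 14, rostral KO arrays 7, 8 and 15, and rostral WT arrays 10, 12 and 16. Tfap2c encodes AP2gamma, a DNA-binding regulator of transcription. By its title, the series asks how AP2gamma sets basal progenitor number, basal progenitors being cells that divide away from the ventricle and give rise to neurons. The strain, the form of the deleted allele and any Cre driver are not given in the sources used here.

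In the mitochondrial pathway of apoptosis, BAX-like proteins open the outer mitochondrial membrane, survival proteins such as BCL2 and MCL1 hold them back, and BH3-only proteins relieve that restraint. Released cytochrome c then assembles with APAF1 and caspase-9 into the apoptosome, which activates the executioner caspases. XIAP blocks caspases until DIABLO displaces it. The transcription factor p53 raises many of these genes, among them Bbc3 and Pmaip1, together with genes of growth arrest and stress defence, and MDM2 and MDM4 keep p53 in check. In the embryonic cortex, dividing progenitors and young neurons are both known to be sensitive to p53-driven death. Much of the control of apoptosis acts on proteins, by cleavage and release, which an array of transcripts does not measure.

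Because the deleted gene encodes a DNA-binding protein, promoters of members are shown with the letters of its usual recognition sequence, GCCNNNGGC, which reads alike on both strands. RefSeq windows on GRCm38.p6, from 250 bases before to 50 bases after an annotated start, were matched for 33 of the 38 genes (47 windows), and not for Bik, Perp, Pmaip1, Trp53inp1 and Zmat3. The 250 bases before the start are printed 5′ to 3′ on the strand of the gene, with the AP2 letters in capitals. Casp9 is shown because it was the member with the lowest p between KO and WT averaged over regions, Apaf1 as its partner in the apoptosome, Bbc3 as a BH3-only gene controlled by p53, and Sesn1 for its difference between regions. They lie at chr4:141793362-141793611 (Casp9, plus strand), chr10:91082744-91082993 (Apaf1, minus strand), chr7:16309333-16309582 (Bbc3, plus strand, the first of 3 windows) and chr10:41810324-41810573 (Sesn1, plus strand, the first of 2 windows).
Casp9: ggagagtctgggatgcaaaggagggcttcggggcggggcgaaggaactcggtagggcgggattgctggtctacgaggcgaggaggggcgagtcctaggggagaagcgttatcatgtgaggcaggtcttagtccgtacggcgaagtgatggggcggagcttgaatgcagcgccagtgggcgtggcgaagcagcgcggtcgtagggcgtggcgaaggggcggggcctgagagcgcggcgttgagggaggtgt
Apaf1: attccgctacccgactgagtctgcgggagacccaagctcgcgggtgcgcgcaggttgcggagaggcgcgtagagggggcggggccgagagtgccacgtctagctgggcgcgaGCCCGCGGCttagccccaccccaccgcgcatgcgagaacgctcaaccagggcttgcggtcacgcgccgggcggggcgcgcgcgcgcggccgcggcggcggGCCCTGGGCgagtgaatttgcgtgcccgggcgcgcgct
Bbc3: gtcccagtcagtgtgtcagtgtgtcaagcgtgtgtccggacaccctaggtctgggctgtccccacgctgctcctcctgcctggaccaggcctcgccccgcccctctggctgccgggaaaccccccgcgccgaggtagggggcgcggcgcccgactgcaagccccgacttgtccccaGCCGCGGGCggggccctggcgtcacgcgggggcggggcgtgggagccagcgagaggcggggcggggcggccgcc
Sesn1: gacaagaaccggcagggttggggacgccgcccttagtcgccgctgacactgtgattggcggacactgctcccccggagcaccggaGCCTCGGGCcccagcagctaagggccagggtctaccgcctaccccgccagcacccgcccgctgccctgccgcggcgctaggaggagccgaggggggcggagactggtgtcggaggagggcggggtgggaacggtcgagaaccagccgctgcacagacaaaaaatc
The Casp9 window held no such letters. In the Apaf1 window they began 138 and 38 bases before the start, in the Bbc3 window 74 bases before it, and in the Sesn1 window 165 bases before it. At least 1 window with these letters was found for 11 of the 33 member genes (33.3%), against 18.5% of all genes with a window: Aen, Apaf1, Bad, Bbc3, Bcl2, Bcl2l11, Birc2, Fas, Mdm2, Sesn1 and Xiap. Member windows were also richer in G and C, with a median of 63.3% against 52.7% over all windows, and the part of base composition in that share was not tested. The palindromic p53 half-site was searched by its consensus, and a full site as 2 half-sites up to 13 bases apart. A full site was in 0 of 47 member windows and in 0.0731% of all windows, while a single half-site was in 23.4% of member windows and 8.36% of all. These are matches of letters in short windows and are not measured binding.

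The tissue and genotype were checked first. All 6 measured markers of dorsal cortex were detected (above 5.21 on the log2 scale, the median of the whole table), and their mean lay between 9.78 and 10.40 on the 12 arrays. Tfap2c itself was 7.71, 7.86 and 7.44 in caudal KO cortex and 9.19, 8.84 and 8.64 in caudal WT cortex. In rostral cortex it was 8.11, 8.63 and 8.09 in KO and 9.06, 9.0 and 8.54 in WT. Every caudal KO array lay below every caudal WT array, while rostral KO animal 8 lay above rostral WT animal 16. These values are from the brightest probe set of Tfap2c. On its other tested probe sets the genotypes did not overlap in either region. There the highest rostral KO array was animal 8, with 7.79 and 7.50. The lowest rostral WT array was animal 16, with 8.07 and 7.65 respectively. Averaged over regions, Tfap2c fell by 0.91 ± 0.14 on the log2 scale (SE; limma, adjusted p = 0.038). Whether its probe sets lie in the deleted part of the gene was not examined here. Some arrays stood apart in their markers. Caudal WT animal 6 had a choroid plexus and hem marker mean of 7.01 against 2.95 to 4.79 on the other caudal arrays. Rostral KO animal 15 had a meningeal marker mean of 6.86 against 4.15 to 4.60 on the other rostral arrays. Xist, the X-inactivation transcript, read 11.32 in WT animal 6 and 11.89 in WT animal 12, and 5.48 or lower on the other arrays. Eif2s3y, also sex-linked, read 0.2 and 2.6 in those animals and 8.49 or higher on the other arrays. By these transcripts sex was not balanced between the genotypes.

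No p53 or apoptosis gene tested passed the threshold for a difference between AP2gamma KO and WT cortex. With limma and Benjamini-Hochberg adjustment over all 11785 tested genes, 0 of the 32 tested members passed an adjusted p of 0.05 in KO against WT averaged over regions, where 0.0339% of all tested genes passed. The same held within caudal cortex (0 of 32, against 0% of all genes), within rostral cortex (0 of 32, against 0%), and for the difference of the KO effects between regions (0 of 32, against 0%). Tfap2c, the deleted gene, did not pass within either region, so a lack of calls there is not evidence of no change. In bulk tissue, fewer cells of a type and less RNA per cell cannot be told apart. At an unadjusted p under 0.05, 1 of 32 members (3.12%) was reached in the averaged comparison against 7.53% of all genes. In caudal cortex it was 1 (3.12%) against 4.06%, in rostral cortex 2 (6.25%) against 6.69%, and for the difference of effects 0 against 3.04%. Thus none of these 4 shares of members exceeded that of all tested genes.

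The intervals show how large a difference these arrays left possible. The 95% interval of the averaged KO effect lay within 1.5-fold of no difference, up or down, for 28 of the 32 tested members, and within 2-fold for 30. Those outside 1.5-fold were Bak1, Pmaip1, Sesn2 and Gadd45a, each of which had arrays below the median of the table. For a single region the intervals were wider, with a median half-width of 0.32 (log2) in caudal and 0.31 in rostral cortex against 0.22 for the average. Within a region, 21 members in caudal and 22 in rostral cortex stayed within 1.5-fold. For the KO effect in caudal minus that in rostral cortex only 13 did. The member effects had a median of -0.04 averaged over regions, beside -0.01 for all tested genes, with 12 members higher and 20 lower in KO. In caudal cortex the median was -0.06 (all genes 0.00; 11 higher, 21 lower; 0.04 without WT animal 4), and in rostral cortex 0.00 (all genes -0.02; 16 higher, 16 lower).

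**Figure D1:**
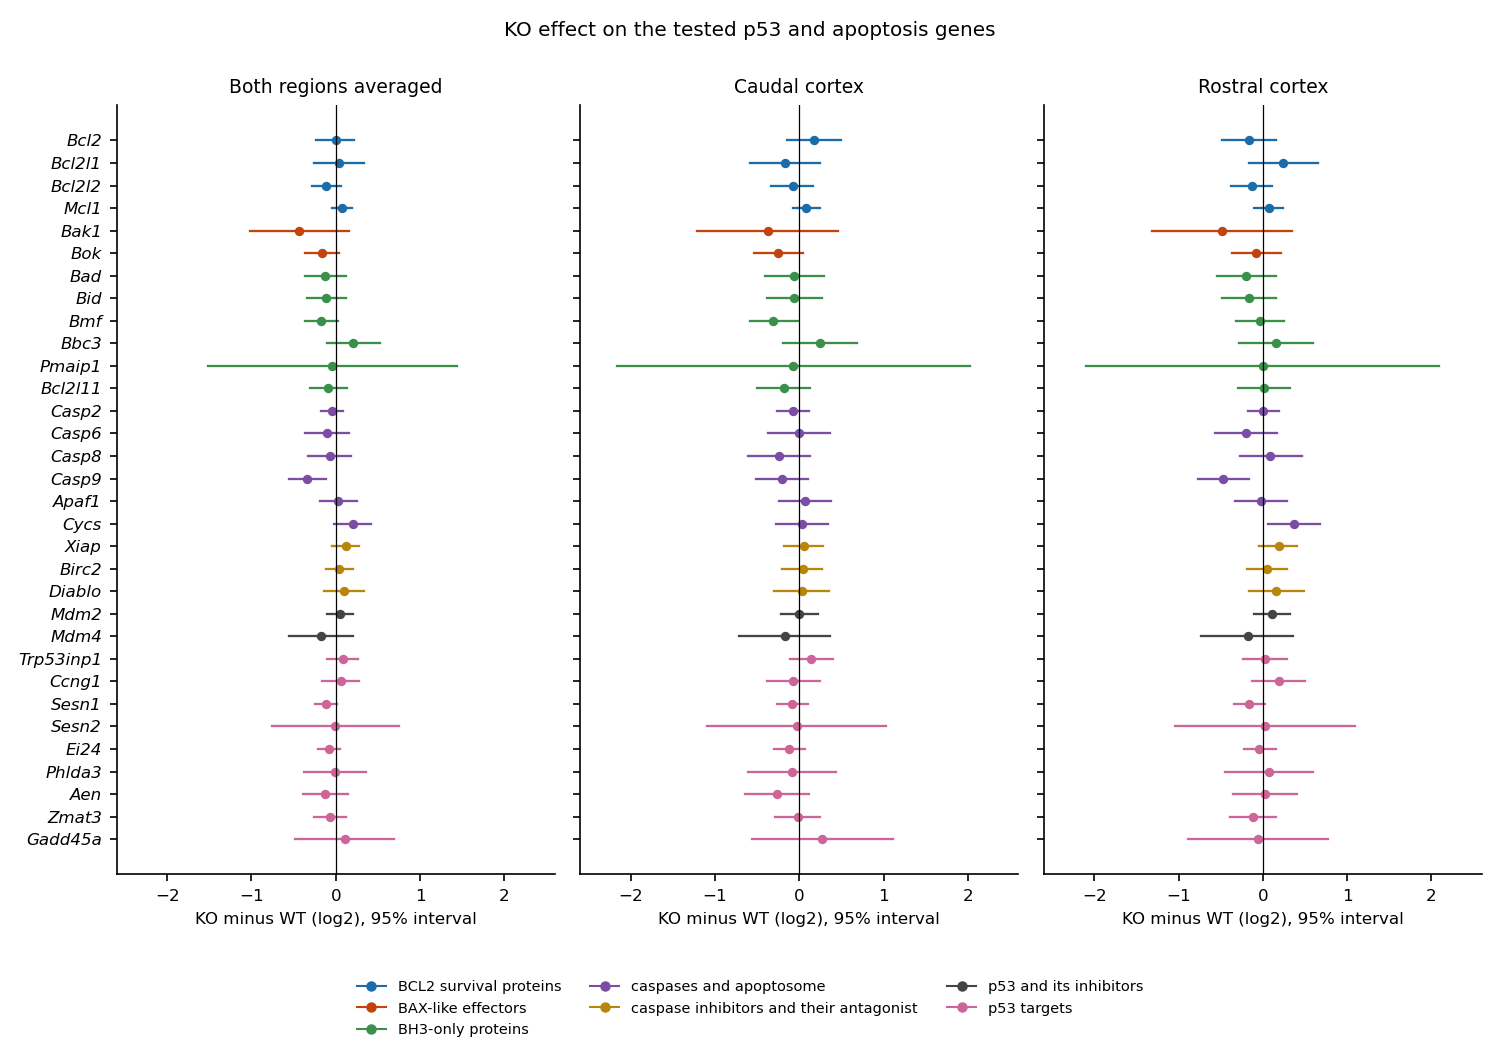
KO minus WT difference on the log2 scale (points) with 95% intervals (lines) for the 32 tested members, averaged over both regions, in caudal and in rostral cortex, coloured by role. In the averaged panel only the interval of Casp9 (-0.55 to -0.12) leaves out 0, and Pmaip1, Sesn2, Bak1 and Gadd45a have the widest intervals.

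Among the 12 tested genes of the BCL2 family, 0 passed the test, with 3 higher and 9 lower in KO averaged over regions and a median of -0.10. The 4 survival genes were all expressed. Bcl2 was 8.70, 8.61 and 9.12 in caudal KO and 8.46, 8.62 and 8.85 in caudal WT, and rostrally 8.59, 8.26 and 8.31 in KO against 8.65, 8.45 and 8.57 in WT. These groups overlapped in both regions, and the KO effect was 0.17 ± 0.15 (log2, SE) caudally and -0.17 ± 0.15 rostrally, a difference of 0.34 with an adjusted p of 1.0. With single arrays left out the caudal effect ran from 0.01 to 0.27, being 0.01 without KO animal 13 and 0.07 without WT animal 4. Bcl2l1, which encodes BCL-xL, the main survival protein of young neurons, was 8.95, 8.89 and 8.52 in caudal KO and 9.40, 8.47 and 8.99 in caudal WT. Rostrally it was 8.78, 8.69 and 9.05 in KO and 8.65, 8.50 and 8.65 in WT, where the KO arrays lay above the WT arrays. Its KO effects were -0.17 ± 0.19 caudally and 0.24 ± 0.19 rostrally (adjusted p = 1.0 and 0.84), and their difference was -0.41 (adjusted p = 1.0). The caudal effect was 0.05 without WT animal 4, -0.03 without KO animal 13 and -0.41 without WT animal 6. On the other tested probe sets of Bcl2l1 the rostral differences were -0.08, where the groups overlapped, and 0.16, where KO lay above WT.

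Mcl1, the survival gene on which cortical progenitors are known to depend, was 10.64, 10.69 and 10.55 in caudal KO and 10.49, 10.69 and 10.46 in caudal WT. In rostral cortex the values were 10.64, 10.61 and 10.58 in KO and 10.61, 10.51 and 10.50 in WT. All 12 arrays lay between 10.46 and 10.69, the groups overlapped in both regions, and the averaged effect was 0.08 ± 0.05 (adjusted p = 0.82). Bcl2l2, encoding the survival protein BCL-w, lay between 8.28 and 8.84 on all arrays, with an averaged effect of -0.11 ± 0.08.

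Of the pore-forming effectors, Bak1 and Bok were tested. Bak1 lay between 4.51 and 5.81, around the median of the table, and its averaged effect was -0.43 ± 0.27 (adjusted p = 0.78), with an interval from -1.02 to 0.16. Bok, a BAX relative, was 8.98, 9.09 and 8.54 in caudal KO and 9.31, 8.96 and 9.08 in caudal WT. Rostrally it was 8.93, 8.90 and 8.83 in KO and 8.91, 9.03 and 8.96 in WT. The groups overlapped in both regions, caudal KO animal 13 was the lowest array, and the effect was -0.25 ± 0.13 caudally and -0.08 ± 0.13 rostrally. With single arrays left out the caudal effect ran from -0.36 to -0.09. It was -0.09 without caudal KO animal 13 and -0.15 without caudal WT animal 4.

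BH3-only genes, the sensors that start the mitochondrial pathway, numbered 7, of which 6 were tested. Bbc3, which encodes PUMA and is a direct p53 target, was 5.82, 6.24 and 5.90 in caudal KO and 5.68, 5.79 and 5.73 in caudal WT, so that the KO arrays lay above the WT arrays. Rostrally it was 6.17, 6.17 and 5.99 in KO against 5.83, 5.78 and 6.24 in WT, with WT animal 16 the highest of the 6. The effects were 0.25 ± 0.20 and 0.16 ± 0.20, and the averaged one was 0.21 ± 0.14 (adjusted p = 0.81). Pmaip1, which encodes NOXA, another direct p53 target, was 1.40, 0.92 and 3.95 in caudal KO, 2.88, 0.44 and 3.16 in caudal WT, 4.03, 5.84 and 6.00 in rostral KO and 5.41, 5.28 and 5.18 in rostral WT. All 6 caudal arrays lay below the median of the table, where levels have only an upper bound, so the KO effect on Pmaip1 in caudal cortex was not measurable.

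Bmf, a BH3-only gene whose protein binds the cytoskeleton, was 6.79, 6.69 and 6.65 in caudal KO and 7.05, 7.08 and 6.91 in caudal WT. In rostral cortex it was 6.89, 7.08 and 6.87 in KO and 7.10, 6.88 and 6.95 in WT. The caudal groups did not overlap and the rostral ones did. The caudal effect was -0.31 ± 0.13 (unadjusted p = 0.039, adjusted p = 1.0), the lowest p of any member there, and the rostral effect was -0.03 ± 0.13. The difference between these effects was -0.27 ± 0.19 (adjusted p = 1.0). The other tested BH3-only genes lay between 7.67 and 8.21 (Bad, held inactive by survival kinases), 6.66 and 7.38 (Bid, cleaved by caspase-8) and 7.30 and 7.87 (Bcl2l11, encoding BIM), with averaged effects of -0.13, -0.11 and -0.09 that did not pass. The other tested probe set of Bad differed by -0.58 averaged over regions, -0.35 caudally and -0.81 rostrally, and did not pass. Its rostral values were 7.46, 7.34 and 5.81 in KO, the last being animal 15, and 7.39, 8.00 and 7.66 in WT. Bik had 3 probe sets, all dim on all 12 arrays, at 4.98 or lower.

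In the second class, the caspases, the apoptosome and the caspase inhibitors, 0 of 9 tested genes passed, with 5 higher and 4 lower and a median of 0.03. Casp9, the initiator caspase of the apoptosome, stood first of all members. It was 6.93, 6.90 and 7.07 in caudal KO and 7.07, 7.26 and 7.17 in caudal WT. Rostrally it was 6.82, 6.95 and 6.53 in KO and 7.26, 7.31 and 7.13 in WT. All rostral KO arrays lay below all rostral WT arrays, and the caudal groups did not overlap either, although the nearest pair, KO animal 13 and WT animal 4, both round to 7.07. The effect was -0.20 ± 0.14 caudally, -0.47 ± 0.14 rostrally (unadjusted p = 0.0051, adjusted p = 0.63) and -0.34 ± 0.10 averaged (unadjusted p = 0.0047, adjusted p = 0.42). The adjusted p of the averaged effect ran from 0.21 to 0.87 over 27 alternative analyses and passed in 0. Only 1 of its 3 probe sets was bright enough to test, the others reaching at most 5.37 and 3.43.

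Among members, Casp9 alone had KO arrays entirely below WT arrays in both regions, 1 of 32 (3.12%) against 1.18% of all tested genes with no overlap, in a shared direction, in either region. In caudal cortex alone 4 members (12.5%) did not overlap, against 7.52% of genes: Bmf and Casp9 were lower, Bbc3 and Trp53inp1 higher. In rostral cortex it was also 4 (12.5%), against 13.0%: Casp9 was lower, and Cycs, Bcl2l1 and Mdm2 were higher.

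Cycs, encoding cytochrome c, was 11.56, 11.51 and 11.39 in caudal KO and 11.58, 11.50 and 11.27 in caudal WT. Rostrally it was 11.68, 11.96 and 11.66 in KO and 11.64, 11.55 and 11.00 in WT. The caudal groups overlapped and the rostral ones did not, WT animal 16 being the lowest array. The rostral effect was 0.37 ± 0.14 (unadjusted p = 0.023, adjusted p = 0.68), the caudal one 0.03 ± 0.14, and their difference -0.34 ± 0.20 (adjusted p = 1.0). With single arrays left out the rostral effect ran from 0.17, without rostral WT animal 16, to 0.49. The other 3 probe sets of Cycs gave rostral effects of -0.01, 0.07 and -0.20, the last on a probe set near the median of the table. Cytochrome c has processed pseudogenes, and signal from such copies was not examined.

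Apaf1, the scaffold of the apoptosome, was 8.19, 8.02 and 8.13 in caudal KO and 8.07, 7.72 and 8.33 in caudal WT. Its rostral values were 8.06, 7.81 and 8.11 in KO and 7.97, 7.99 and 8.08 in WT. The groups overlapped in both regions, with an averaged effect of 0.03 ± 0.10 (adjusted p = 0.98) and an interval from -0.19 to 0.25. Casp2, an initiator caspase, lay between 9.56 and 9.83, and Casp6, an executioner caspase, between 7.49 and 8.21, with averaged effects of -0.04 and -0.10. Casp8, the initiator of the death receptor pathway, differed in KO by -0.24 ± 0.17 caudally and 0.09 ± 0.17 rostrally, and its arrays are given with the regions below.

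The caspase inhibitors and their antagonist were all higher in KO on average, by amounts that did not pass. Xiap lay between 9.58 and 10.11 with an averaged effect of 0.12 ± 0.07 (adjusted p = 0.78). Its lowest arrays, both at 9.58, were WT animals 6 and 12, which had high Xist, with caudal KO animal 1 next at 9.60. This did not recur on its other tested probe sets. There the lowest arrays were rostral WT animal 16 (7.49) and caudal WT animal 4 (4.92), and on the latter probe set WT animal 12 was the highest (5.89). Birc2, encoding the XIAP relative cIAP1, lay between 8.72 and 9.17 with 0.04 ± 0.08. Diablo, encoding their antagonist SMAC, lay between 8.66 and 9.20 with 0.10 ± 0.11. Birc3, encoding cIAP2, was dim on all 12 arrays on both of its probe sets, at 4.74 or lower.

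**Figure D2:**
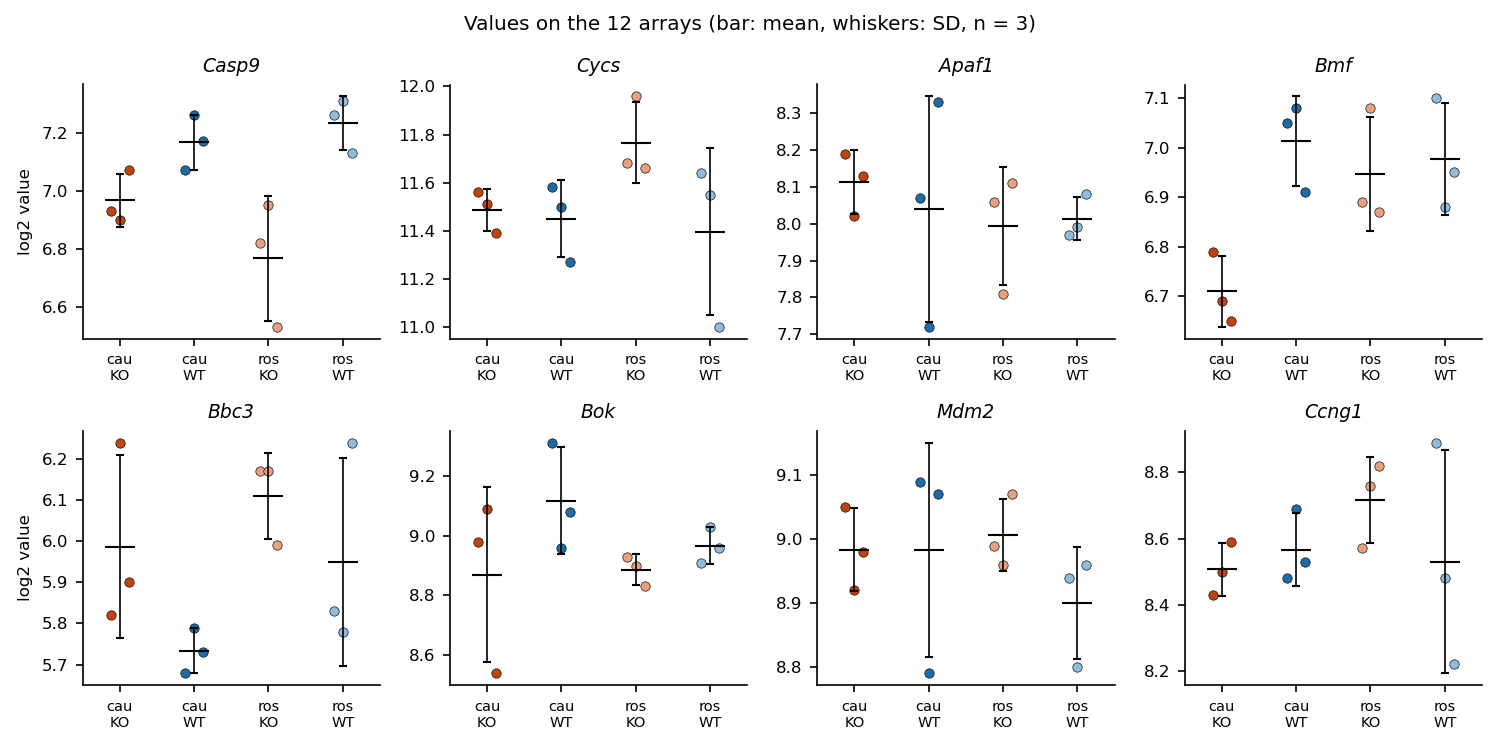
Log2 values on the 12 arrays for 8 members, by region (cau, caudal; ros, rostral) and genotype; points are arrays, bars the mean of 3 arrays and whiskers the SD. Casp9 KO arrays lie at or below 7.07, the caudal KO values of Bmf (6.65 to 6.79) lie below those of the other 9 arrays, and KO and WT values of Apaf1 and Ccng1 overlap in both regions.

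In the third class, the p53 regulators and targets, 0 of 11 tested genes passed, with 4 higher and 7 lower and a median of -0.01. Mdm2, both the ubiquitin ligase that removes p53 and a p53 target, was 9.05, 8.92 and 8.98 in caudal KO and 9.09, 8.79 and 9.07 in caudal WT. Rostrally it was 8.99, 8.96 and 9.07 in KO and 8.94, 8.80 and 8.96 in WT. The caudal groups overlapped, while in rostral cortex KO lay above WT by a margin too small to show at 2 decimals. The averaged effect was 0.05 ± 0.07 with an interval from -0.10 to 0.21 (adjusted p = 0.89). Mdm4, another inhibitor of p53, lay between 7.51 and 8.64, both in WT, and its averaged effect was -0.18 ± 0.18.

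Ccng1, encoding cyclin G1 a long-known p53 target, was 8.43, 8.50 and 8.59 in caudal KO and 8.48, 8.69 and 8.53 in caudal WT. Its rostral values were 8.57, 8.76 and 8.82 in KO and 8.89, 8.48 and 8.22 in WT. The groups overlapped in both regions, and the averaged effect was 0.06 ± 0.10 (adjusted p = 0.92). Aen, a p53-induced nuclease, was 8.10, 7.80 and 7.48 in caudal KO against 8.31, 8.09 and 7.81 in caudal WT, and rostrally 8.03, 8.29 and 7.87 in KO against 8.08, 8.18 and 7.87 in WT. The groups overlapped, and the caudal effect of -0.27 ± 0.18 did not pass (adjusted p = 1.0). It was -0.11 without KO animal 13, -0.15 without WT animal 4 and -0.43 without KO animal 1.

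The remaining targets gave no called difference. Trp53inp1, a stress-induced cofactor of p53, lay between 11.20 and 11.73 and had a caudal effect of 0.14 ± 0.12. Its other tested probe set went the other way in caudal cortex, by -0.23, and the groups overlapped there. Ei24, an endoplasmic reticulum protein, lay between 10.12 and 10.50, Zmat3, an RNA-binding protein, between 7.90 and 8.29, and Phlda3, an inhibitor of AKT, between 6.29 and 7.31, with averaged effects of -0.08, -0.07 and -0.01. Sesn2, a stress-induced sestrin, was near the median of the table (4.32 to 6.06), and its averaged effect of -0.01 ± 0.35 says little. Fas, the death receptor, was at 2.79 or lower and Perp, a membrane protein, at 5.15 or lower on all 12 arrays, so neither was tested.

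Members with and without AP2 letters in a promoter window were set side by side, with no test. Averaged over regions, 10 such members were tested, 5 of them higher and 5 lower in KO, with a median of 0.01. The 19 tested members with windows lacking the letters had 6 higher and 13 lower, with a median of -0.07. Over all tested genes the medians were -0.02 with the letters (2814 genes) and -0.01 without them (6749 genes).

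Several probe sets of 1 gene did not always point the same way. Among 16 members with more than 1 tested probe set, all probe sets had the same sign of the KO effect in 9 genes in caudal cortex, 6 in rostral cortex and 8 in the average. When every probe set was tested on its own, 0 of 64 member probe sets passed in any of the 6 comparisons. Of all 24676 probe sets tested, 0.00811% passed in the averaged KO comparison, 0% in the other 3 KO comparisons, 0.336% between regions in WT and 0.369% in KO. In the averaged comparison 4 of the 64 reached an unadjusted p under 0.05, and 6.77% of all probe sets did. In caudal cortex it was 2 (874 of all 24676), in rostral cortex 6 (1545) and for the difference of effects 1 (668). Between regions it was 3 in WT (2034 of all) and 8 in KO (2578). The member share exceeded that of all probe sets in rostral cortex and between regions in KO. Probe sets of 1 gene are not replicates. Sesn1 was split: its brightest probe set differed in rostral KO cortex by -0.16, and the other 2 by 0.50 and 0.34. Of the 4 tested probe sets of Bcl2l11, 3 differed by -0.26 to -0.13 in caudal and 0.01 to 0.06 in rostral KO, and none of these differences passed. The other exceeded the median of the table on only 3 arrays, caudal WT animals 4 and 6 and rostral KO animal 7. Its remaining arrays lay below that median, so the size of its differences is not given. Of 6 probe sets of Mcl1, 1 read 10.36, 10.52 and 10.40 in KO against 10.30, 10.11 and 9.80 in WT rostrally, which did not overlap and differed by 0.36 ± 0.11 (unadjusted p = 0.0079, adjusted p = 0.75 over probe sets), while the brightest differed by 0.07.

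**Figure D3:**
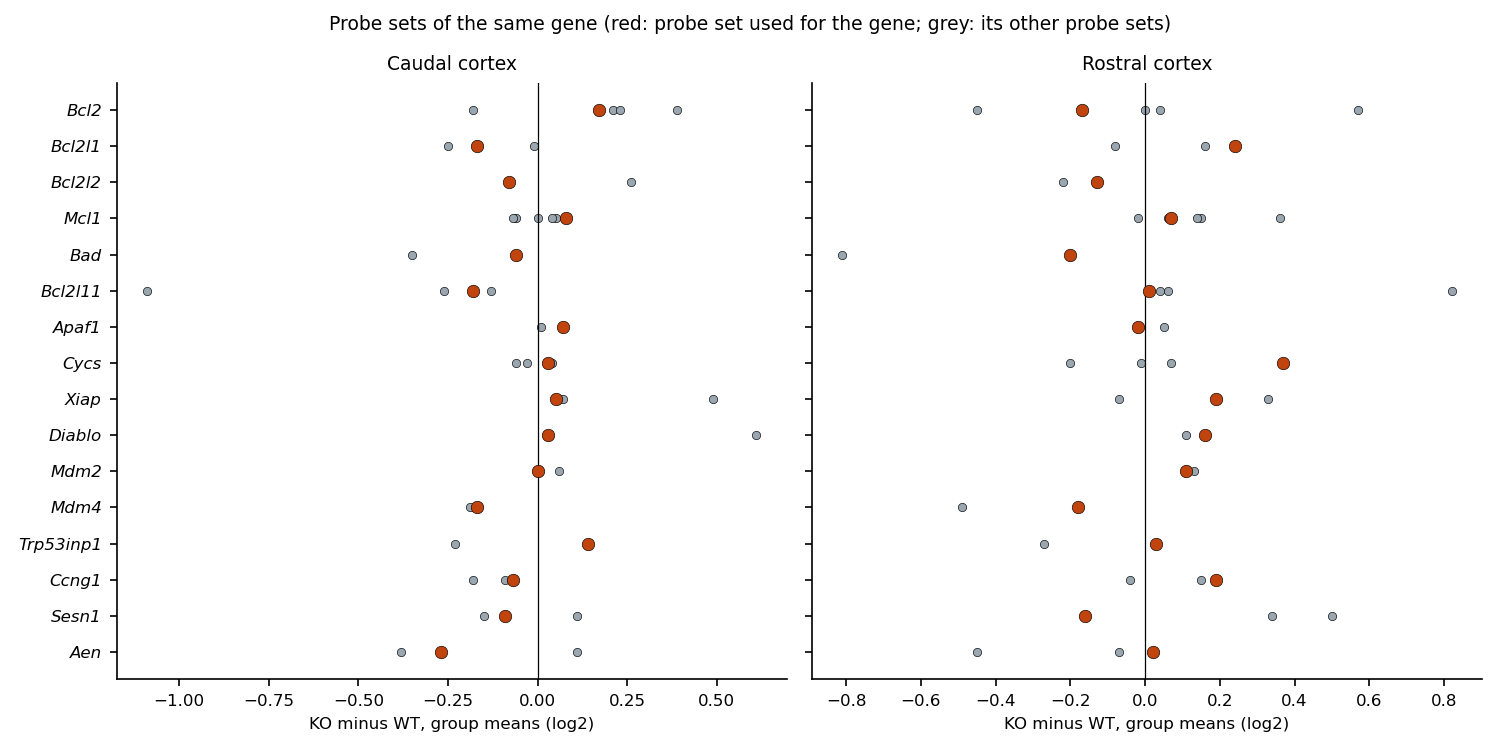
KO minus WT differences of group means (log2) in caudal and rostral cortex for the 16 members with more than 1 tested probe set; red marks the probe set used for the gene and grey its others. The outermost Bcl2l11 point in each region is a probe set above the table median on only 3 of 12 arrays, and Sesn1 spans -0.16 to 0.50 in rostral cortex.

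Between caudal and rostral cortex, 0 of 32 members passed in WT and 0 of 32 in KO. In WT cortex 0.942% of all tested genes passed, and in KO cortex 0.950%. At an unadjusted p under 0.05 there were 3 members in WT (9.38%, against 10.4% of all genes) and 6 in KO (18.8%, against 13.2%). Groups did not overlap for 5 members in WT (15.6%, against 13.9%) and 10 in KO (31.2%, against 20.9%). These counts include Pmaip1, which passed the filter on low values only through rostral arrays. Without it 2 of 31 members reached the unadjusted p in WT (6.45%) and 5 in KO (16.1%), and groups did not overlap for 4 in WT (12.9%) and 9 in KO (29.0%). The 2 region comparisons use different arrays. In WT the 5 were Sesn1, Pmaip1, Gadd45a and Bid, lower caudally, and Birc2, higher. In KO, Casp8, Pmaip1, Sesn1, Xiap, Ei24, Cycs, Casp2 and Bmf were lower caudally, and Bcl2 and Bcl2l2 higher.

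Sesn1, a p53-induced sestrin that restrains growth signalling under stress, separated the regions in both genotypes on its brightest probe set. It was 9.56, 9.60 and 9.70 in caudal KO, 9.63, 9.81 and 9.68 in caudal WT, 9.98, 9.85 and 9.81 in rostral KO and 10.11, 9.98 and 10.02 in rostral WT. Caudal arrays lay below rostral arrays within each genotype. The difference was -0.33 ± 0.08 in WT (adjusted p = 0.09) and -0.26 ± 0.08 in KO (adjusted p = 0.19), neither past 0.05. In WT it passed when arrays with matching steps of animal number were treated as a random block (adjusted p = 0.036), and in KO with array weights (adjusted p = 0.032). In those analyses more genes of all kinds passed, 2.72% of tested genes in WT with the random block and 5.41% in KO with array weights. Its other 2 tested probe sets were also lower on average caudally, with differences of -0.19 and -0.27 in WT and -0.58 and -0.76 in KO. On these 2 probe sets the regions overlapped in WT and did not overlap in KO.

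Casp8 was 6.30, 6.13 and 5.98 in caudal KO and 6.22, 6.59 and 6.33 in caudal WT. In rostral cortex it was 6.61, 6.83 and 6.94 in KO and 6.78, 6.76 and 6.56 in WT. The KO groups did not overlap, and in WT caudal animal 6 lay above rostral animal 16. The caudal minus rostral difference was -0.65 ± 0.17 in KO (adjusted p = 0.092) and -0.32 ± 0.17 in WT (adjusted p = 0.57). The KO value passed with array weights (adjusted p = 0.024) and with the random block (adjusted p = 0.035), where 3.27% of all tested genes passed. At a threshold of 0.1, Sesn1 in WT and Casp8 in KO would be called, beside 2.03% and 2.38% of all tested genes. The difference between the regions' KO effects, -0.33 ± 0.24, did not pass (adjusted p = 1.0).

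The fitted regional differences of Pmaip1 did not pass (adjusted p = 0.18 in WT and 0.16 in KO). It entered the test only through its rostral arrays, so a difference between regions was built into its inclusion. Since both caudal groups were dim, the fitted size is no measure. Only 2 of 3 rostral arrays in each genotype exceeded the median of the table, rostral KO animal 7 at 4.03 and rostral WT animal 16 at 5.18 being below it, and no fold is given.

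Gadd45a, a growth arrest gene induced by p53 and by other stress signals, was 6.29, 5.79 and 4.41 in caudal KO and 5.58, 4.89 and 5.19 in caudal WT. Rostrally it was 6.32, 5.84 and 5.89 in KO and 6.09, 6.11 and 6.03 in WT. WT caudal arrays lay below WT rostral arrays with a difference of -0.85 ± 0.39 (adjusted p = 0.46). The difference in KO was -0.52 ± 0.39, and it was 0.02 without caudal KO animal 13 and -0.91 without caudal KO animal 1. In KO cortex, Bcl2 differed by 0.42 ± 0.15 (adjusted p = 0.23), caudal minus rostral, and Bcl2l2 by 0.27 ± 0.11 (0.32), while Xiap differed by -0.28 ± 0.10 (0.28). None of these passed.

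**Figure D4:**
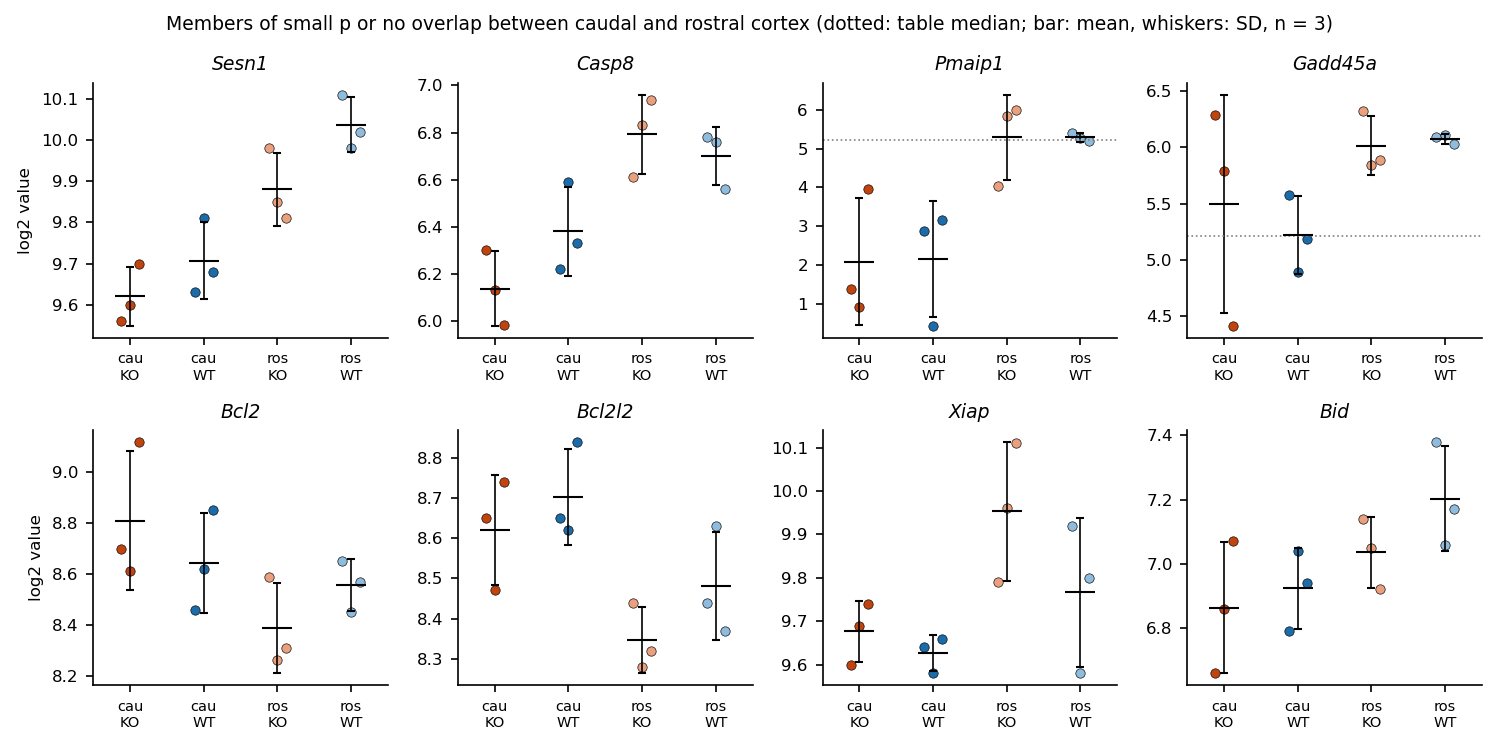
Log2 values on the 12 arrays for 8 members with a small p or no overlap between regions; points are arrays, bars the mean of 3 and whiskers the SD, and the dotted line is the table median (5.21). Caudal arrays of Sesn1 lie below rostral arrays within each genotype, Casp8 arrays separate by region in KO (at most 6.30 against at least 6.61), and all caudal values of Pmaip1 lie below the dotted line.

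Markers of other cells also differed between the groups. Ganglionic eminence and interneuron markers (10 measured, Nkx2-1 dim on all arrays) had a mean of 5.73 to 6.51 on caudal and 6.81 to 7.92 on rostral arrays. Among them Isl1 was dim on all 6 caudal arrays, at 1.86 to 3.92, and read 7.04 to 7.39 in rostral WT and 5.15 to 8.41 in rostral KO. Hopx, a radial glia marker, was lower caudally, differing by -0.99 ± 0.13 in WT and -1.06 ± 0.13 in KO (adjusted p = 0.00512 and 0.00386), as was Pax6, a progenitor regulator, by -0.44 ± 0.09 and -0.40 ± 0.09 (0.0333 and 0.0487). The list of 11 radial glia markers, which holds both, was not lower as a whole in WT, with 5 higher and 6 lower caudally and a median of -0.03. In KO 2 were higher and 9 lower, with a median of -0.14. Of 13 dividing cell markers, 0 passed, and 13 in WT and 11 in KO were lower caudally, with medians of -0.13 and -0.14. Microglia and macrophage markers (15 measured, of which Aif1, Trem2, Itgam, Ptprc and Mertk were dim on all arrays) had a mean of 4.59 to 5.10 on caudal and 5.06 to 5.18 on rostral arrays, below the median of the table on every array and overlapping between regions. The part of these cells in the regional values of Sesn1, Casp8 and Pmaip1 was not tested. With genotype, the 9 basal progenitor markers had a mean of 8.98 to 9.17 in caudal KO against 9.33 to 9.68 in caudal WT, and 9.15 to 9.36 in rostral KO against 9.50 to 9.71 in rostral WT. Neurod4, a proneural factor and 1 of the 9, was at 3.99 to 5.76 in KO and 6.31 to 7.44 in WT (adjusted p = 0.00194, averaged over regions), while the effects of the 9 had a median of -0.09, with 8 lower. Eomes fell by 0.56 ± 0.08 in KO averaged over regions (adjusted p = 0.0384). Their part in the KO effects on members such as Casp9 was not tested.

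Further genes of both pathways did not pass in the KO comparisons either. Among 35 other apoptosis genes, 23 were tested and 0 passed in any of the 6 comparisons, and the averaged effects had a median of -0.04 with 7 higher and 16 lower. Parp1, a DNA repair enzyme cut by caspases, had the smallest p, at 10.13, 9.97 and 10.11 in caudal KO, 10.52, 10.15 and 10.40 in caudal WT, 10.07, 9.95 and 10.08 in rostral KO and 10.06, 10.39 and 10.33 in rostral WT. The caudal groups did not overlap and the rostral ones did, and the averaged effect was -0.26 ± 0.08 (adjusted p = 0.429). Among 48 other p53 pathway genes, 42 were tested and 0 passed in the KO comparisons, with a median of -0.02 and 18 higher against 24 lower. Gadd45g, which is also on the basal progenitor list, had the smallest p among them, at -0.28 ± 0.10 (adjusted p = 0.539). Plk3, a stress-induced kinase, came next and was higher in KO, by 0.40 ± 0.18 (limma, unadjusted p = 0.041, adjusted p = 0.635). Its caudal effect was 0.57 ± 0.25, where WT animals 6 and 14 (5.01 and 4.79) lay below the median of the table.

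Of these 2 wider lists, 1 gene passed between regions. Rprm, encoding reprimo, a p53-induced cell cycle inhibitor that also marks deep layer neurons, was 11.42, 11.48 and 11.33 in caudal WT and 10.77, 10.93 and 10.86 in rostral WT. Caudal WT arrays all lay above rostral WT arrays, and the gene was higher caudally by 0.56 ± 0.10 (adjusted p = 0.0185). In KO cortex it was 11.32, 11.06 and 11.06 caudally and 10.94, 11.07 and 10.72 rostrally, where the groups overlapped by 1 array and the difference was 0.23 ± 0.10 (adjusted p = 0.324). The difference between these regional steps was -0.32 ± 0.14 (unadjusted p = 0.035, adjusted p = 0.999) and did not pass. Plk3 differed between regions by -1.16 ± 0.25 in WT (adjusted p = 0.0503) and in KO by -0.83 ± 0.25 (adjusted p = 0.159), both short of the threshold.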

How the data were processed

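The values are the authors' deposited log2 values, 1 per probe set and array, used as deposited. Per the labels' protocols, biotin-labelled RNA was made by amplification from 400 ng. The methods of background correction and normalisation are not given in the sources used here; array medians were 5.21 or 5.22. Probe sets named 1 gene (34958), several (932, not used) or none in the platform annotation (9211). A probe set was tested where it exceeded the table median, 5.21, on at least 3 of 12 arrays (24676), and a gene was read on its brightest such probe set. The level of 1 probe set was never set against that of another. "Dim" means at or below 5.21 on all arrays named.

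limma 3.58.1 in R 4.3.3 fitted 1 mean per group over all 12 arrays, with trended empirical Bayes moderation (8 residual and 5.37 prior degrees of freedom). Adjusted p-values are two-sided, Benjamini-Hochberg over 11785 genes, with a threshold of 0.05. The script recovered known changes when tested on simulated data. The members, gene lists and tests were chosen with earlier results of these data known. Values on every array are given for Tfap2c, the 3 members of smallest p in each comparison and a set of main pathway genes. From the wider lists, genes past the threshold or of smallest p are named. The probe sets shown with their own values were chosen after their values were seen. Alternatives covered normalisation, filters, moderation, probe sets, sex, animal numbers and single arrays. Precision is limited by having 3 arrays in a group.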

Additional observations from a re-analysis of the deposited data

How the results depend on the processing

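In KO against WT, averaged or within a region, and in the difference of the KO effects, 0 members passed under every alternative run, single arrays left out included. Between regions the count moved from 0. In WT cortex, where 111 of all genes passed, it was 1 (Sesn1) with arrays of matching number steps, such as animals 1 and 7, as a random block (320 of all genes) and 1 (Sesn1) at an adjusted p threshold of 0.1 (239). In KO cortex, where 112 passed, it was 3 with array weights (Casp8, Pmaip1 and Sesn1; 637 of all genes), 1 with the random block (Casp8; 385) and 1 at the threshold of 0.1 (Casp8; 280). Leaving Pmaip1 out of the members, chosen after seeing the data, could not change the count of 0 in the 6 comparisons with the settings of the report. The adjustment runs over all tested genes, and 0 members were called with Pmaip1 included.

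With single arrays left out, the median member effect ran from -0.07 to -0.03 averaged over regions, from -0.08 to 0.04 in caudal cortex (0.04 without caudal WT animal 4) and from -0.07 to 0.02 in rostral cortex (-0.07 without rostral KO animal 8). It ran from -0.07 to 0.02 for the difference of KO effects (0.02 without caudal WT animal 4), from -0.07 to 0.03 between regions in WT (-0.07 without rostral WT animal 16) and from -0.13 to 0.03 in KO (-0.13 without caudal KO animal 2, 0.03 without caudal KO animal 13). Without animals 6 and 12 the WT regional median was -0.05. Under a mean over the gene's probe sets, Sesn1 reversed in KO against WT, to 0.09 averaged and 0.23 in rostral cortex, because its other probe sets differ in sign. No paired analysis was possible because the groups share no animal number; the random block rests on number steps that the labels do not call pairs. Signals near 5.21 limit Pmaip1, Bak1, Sesn2 and Gadd45a.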
